A study of Mus musculus with 12 samples.

Results

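Genes of the lipid synthesis pathways governed by the transcription factors SREBP1 and SREBP2 (sterol regulatory element-binding proteins) were followed in primary CD8+ T cells of the mouse, with and without trans-vaccenic acid (TVA), a trans fatty acid. The 32 genes, out of 54532 listed, were chosen by name, with earlier results of these data known. They comprised 19 genes of the mevalonate and sterol branch, 5 of the fatty acid branch, 5 of the SREBP machinery and 3 of sterol transport. Desaturases and elongases were left out, and other genes of these pathways were not analysed here. RNA-seq was available for 4 groups of 3 libraries each. siNTC cells were wild type by label, received a non-targeting control siRNA and then DMSO for 24 h. siNTC plus TVA cells received the same siRNA and then TVA. siCreb1 cells received an siRNA against *Creb1*, which encodes the cAMP-responsive transcription factor CREB, and then DMSO, and siCreb1 plus TVA cells received that siRNA and TVA. By the study's methods the cells came from the spleen and lymph nodes of C57BL/6 mice and were activated before transfection, and TVA was used at 20 μM. The knockdown was transient and left some *Creb1* RNA, and all cells of all groups had passed through siRNA delivery. No source used here says that the 3 libraries of a group came from separate mice or cultures, so p-values measure the spread between these libraries, which may be technical.

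SREBPs are made as precursors in the membrane of the endoplasmic reticulum, where the escort protein SCAP binds them. When sterols are low, SCAP carries them to the Golgi, where proteases release the part that enters the nucleus and raises transcription of sterol and fatty acid synthesis genes. When sterols are high, INSIG proteins hold SCAP back. SREBP2 acts mainly on sterol synthesis and SREBP1 mainly on fatty acid synthesis, and activated CD8+ T cells draw on both branches to build the membrane of new cells.

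Promoter sequences are shown first because the comparison is between genes held to answer to the same factors. RefSeq (GRCm38.p6) gave a promoter for 27 of the 32 genes, with 36 windows in all, and the 250 bases before each start were read. Below are the windows of *Hmgcs1*, *Mvk* and *Mvd*, sterol branch genes that were lower with TVA, of *Fasn*, the fatty acid branch gene that was lower with TVA, and of *Acly*, a fatty acid branch gene that did not pass the test. They were taken from the windows that lie wholly outside the gene as listed in the expression files. The windows are *Hmgcs1* chr13:119690101-119690350 on the plus strand, *Mvk* chr5:114444019-114444268 on the plus strand, *Mvd* chr8:122443423-122443672 on the minus strand, *Fasn* chr11:120824548-120824797 on the minus strand and *Acly* chr11:100528001-100528250 on the minus strand. Each is written 5′ to 3′ on the strand of its gene. Capitals mark the SREBP site TCACNCCAC, the CCAAT box CCAAT, the full CRE TGACGTCA, which is the palindrome bound by CREB, and the short CRE TGACG, on either strand. At *Fasn* a pair of CCAAT boxes, 1 on each strand, overlaps in a single run of capitals.
Hmgcs1: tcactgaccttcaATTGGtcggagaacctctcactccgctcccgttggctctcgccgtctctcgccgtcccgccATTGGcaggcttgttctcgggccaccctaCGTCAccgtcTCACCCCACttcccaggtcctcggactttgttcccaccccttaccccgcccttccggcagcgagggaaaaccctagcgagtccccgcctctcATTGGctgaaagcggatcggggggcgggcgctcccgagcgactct
Mvk: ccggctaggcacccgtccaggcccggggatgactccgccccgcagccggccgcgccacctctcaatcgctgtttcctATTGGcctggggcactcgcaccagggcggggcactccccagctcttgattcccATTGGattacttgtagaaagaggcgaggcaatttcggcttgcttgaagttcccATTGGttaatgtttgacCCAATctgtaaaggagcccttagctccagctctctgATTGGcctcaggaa
Mvd: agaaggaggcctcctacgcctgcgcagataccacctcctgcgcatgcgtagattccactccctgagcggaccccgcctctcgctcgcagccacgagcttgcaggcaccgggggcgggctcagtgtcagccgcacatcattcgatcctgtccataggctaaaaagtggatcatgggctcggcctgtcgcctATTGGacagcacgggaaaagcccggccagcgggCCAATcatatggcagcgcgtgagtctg
Fasn: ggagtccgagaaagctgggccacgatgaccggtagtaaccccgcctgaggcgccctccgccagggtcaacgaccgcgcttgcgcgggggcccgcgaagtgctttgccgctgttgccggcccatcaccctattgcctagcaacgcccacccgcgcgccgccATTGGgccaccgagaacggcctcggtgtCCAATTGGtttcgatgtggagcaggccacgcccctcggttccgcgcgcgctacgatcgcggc
Acly: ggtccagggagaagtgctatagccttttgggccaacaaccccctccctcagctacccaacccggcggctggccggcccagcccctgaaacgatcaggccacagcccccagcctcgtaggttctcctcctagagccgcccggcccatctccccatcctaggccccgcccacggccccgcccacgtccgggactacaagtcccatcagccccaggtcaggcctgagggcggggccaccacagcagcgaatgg
The CCAAT box, bound by the factor NF-Y that is known to act together with SREBPs, was in a window of 23 of the 27 genes (85.2%). It was in 37.5% of all 27025 genes with a promoter and in 40.9% of the 7998 tested for expression that had one. *Mvk* held 5 CCAAT boxes, and a window with 3 was found at *Hmgcs1*, *Msmo1* and *Fasn*, which were called with TVA, and likewise at *Ggps1*, *Hsd17b7* and *Insig2*, which were not. *Lss*, *Cyp51* and *Insig1*, called with TVA in both backgrounds, held 1, and *Acly*, *Acaca*, *Acat2* and *Scap* held none. The only *Acaca* window lies inside the gene as listed in the expression files, before a start 65766 bases after the listed one. The only *Tm7sf2* window, counted above for its CCAAT box, also lies inside its gene as listed. The SREBP site as spelled here was found only at *Hmgcs1*, 137 bases before its start, against 1.22% of all genes. No window held a full CRE, which 1.77% of all genes and 3.21% of the tested genes had. The short CRE was in 9 of the 27 genes (33.3%), among them *Hmgcs1*, *Cyp51*, *Srebf2* and *Insig1*, against 32.8% of the tested genes, and at *Hmgcs1* it overlapped no SREBP site. The GC box GGGCGG was in 23 genes (85.2%) against 64.4% of tested genes, and the E-box CACGTG in 5 (18.5%) against 10.4%. A match describes letters in the window and not binding, and no match says only that these letters are not there.

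Each library gave between 16660234 and 24602484 reads assigned to genes, as recovered from the FPKM values (fragments scaled to gene length and library size). *Creb1*, the targeted gene, was between 10.3 and 12.4 FPKM in the 6 siNTC libraries and between 1.17 and 1.81 FPKM in the 6 siCreb1 libraries (two-sided exact permutation test, p = 0.00216). All 7 CD8 T cell markers were detected in each library. Their summed level was between 2245 and 2268 FPKM in siNTC, 2218 and 2238 in siNTC plus TVA, 2115 and 2131 in siCreb1 and 2124 and 2149 in siCreb1 plus TVA libraries. The 2 natural killer cell markers summed to between 3.97 and 4.68 FPKM in siNTC, 4.10 and 5.24 in siNTC plus TVA, 3.83 and 4.27 in siCreb1 and 4.76 and 5.07 in siCreb1 plus TVA libraries, the last pair of groups not overlapping. The 4 B cell markers summed to between 1.997 and 2.74 FPKM in siNTC libraries and, without overlap, between 1.69 and 1.76 once TVA was added, and to between 1.09 and 2.15 in siCreb1 and 1.81 and 2.71 in siCreb1 plus TVA libraries, which overlapped. *Cd4* was between 1.47 and 1.75 FPKM in siNTC libraries, between 1.05 and 1.58 FPKM in those given TVA as well, and between 0.921 and 1.27 FPKM in the 6 siCreb1 libraries. The 5 myeloid markers summed to between 10.7 and 12.2 FPKM in siCreb1 plus TVA libraries, between 8.38 and 10.5 FPKM in siCreb1, between 8.54 and 9.40 FPKM in siNTC and between 7.96 and 8.24 FPKM in siNTC plus TVA libraries. *Lyz2* and *Cd68* made up nearly all of it, and *Adgre1* was at 0 in siNTC plus TVA replicate 3 alone. The part of these differences in the results below was not tested. In bulk RNA a change in the make-up of the cells and a change in RNA per cell cannot be told apart.

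With TVA, sterol synthesis genes were lower in siNTC cells and again in siCreb1 cells. In siNTC plus TVA cells 12 of the 31 tested genes were lower and none was higher (limma, Benjamini-Hochberg adjusted p under 0.05), the largest falls being those of *Mvk* (fitted difference −0.33 in log2(FPKM + 1)), *Mvd* (−0.32) and *Lss* (−0.31). Of all 11550 tested genes 7.38% were called in this comparison, 2.88% lower and 4.49% higher. By group, 8 of 19 sterol genes, 3 of 5 machinery genes, 1 of 4 tested fatty acid genes and 0 of 3 transport genes were lower. The median difference over the 31 genes was −0.13, against −0.01 over all tested genes, and 29 of the 31 had a negative sign. In 17 of the 31 genes all 3 siNTC plus TVA libraries lay below all 3 siNTC libraries, as they did in 12.2% of all tested genes, and in 1 gene all lay above, as in 11.7% of all tested genes.

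After *Creb1* knockdown TVA lowered 13 of the 31 tested genes and raised none, while only 0.537% of all tested genes were called, 0.416% lower and 0.121% higher. These 13 made up 21.0% of the 62 genes called in this comparison and 27.1% of the 48 called lower. They were 10 of 19 sterol genes, 1 of 4 fatty acid genes, 1 of 5 machinery genes and 1 of 3 transport genes. With limma-voom on recovered reads 19 were lower, and these were 12 sterol, 3 fatty acid (*Fasn*, *Acly* and *Acaca*), 3 machinery (*Srebf1*, *Srebf2* and *Insig1*) and 1 transport gene. Of all 11550 tested genes limma-voom called 157, of which 93 were lower and 64 higher. *Lss* (−0.45), *Hmgcs1* (−0.44) and *Msmo1* (−0.44) had the largest falls in log2(FPKM + 1). The median difference was −0.23 over the 31 genes and −0.0012 over all tested genes, and in 24 of the 31 genes the libraries with TVA all lay below those without, as in 9.01% of all tested genes, and in none did they all lie above, as in 8.09% of all tested genes. Without siCreb1 replicate 1 or 2 or any siCreb1 plus TVA replicate the number of genes called among all tested dropped to between 30 and 35, and 9 to 14 of the SREBP genes were called whichever of the 12 libraries was left out.

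*Creb1* knockdown without TVA gave 5 higher genes (*Hmgcs1*, *Lss*, *Dhcr7*, *Fasn* and *Acaca*) and 1 lower gene, *Npc2*, of the 31, against 13.7% called among all tested genes, 6.52% higher and 7.21% lower. Taken over both directions the called genes were 19.4% of those tested, near that background, but 5 of these 6 were higher. All 3 siCreb1 libraries lay above all 3 siNTC libraries in 13 of the 31 genes (15.5% of all tested genes) and below them in 1 (16.0% of all tested genes). After rescaling to TPM the split was 8 higher and 0 lower, after quantile normalization 6 and 0, and with limma-voom on recovered reads 9 and 1. The split over all 11550 tested genes moved upward too. It was 753 higher and 833 lower in the main fit and 908 and 297 with TPM. With quantile normalization it was 748 and 637, and with limma-voom 1178 and 805. Without siCreb1 replicate 1 only 3 of the genes were called. In the presence of TVA, siCreb1 cells had 1 higher gene (*Dhcr7*) and 3 lower genes (*Cyp51*, *Stard4* and *Npc2*) than siNTC cells, which is 12.9% of those tested against 10.1% called among all tested genes, 4.64% higher and 5.51% lower. Here the siCreb1 plus TVA libraries all lay above in 1 gene (14.3% of all tested genes) and below in 6 (17.6% of all tested genes). With TPM or quantile normalization the calls became 1 higher and 0 lower. Lower calls became fewer over all tested genes as well. These were 536 higher and 636 lower in the main fit, 620 and 120 with TPM and 595 and 335 with quantile normalization. Leaving out siNTC plus TVA replicate 2 or siCreb1 plus TVA replicate 2 left 1 gene called, and leaving out siNTC plus TVA replicate 1 or 3 or siCreb1 plus TVA replicate 3 left 2. The comparisons share libraries (the siNTC group serves TVA and knockdown alike), so each is given by its own values. The test of whether the TVA difference itself depended on *Creb1* (the interaction) called 1 of the 31 genes, *Hmgcs1*, with a negative sign, against 2.24% of all tested genes, 1.78% negative and 0.459% positive. With an unadjusted p under 0.05 there were 8 of the 31 genes (25.8%), *Hmgcs1* included, against 14.3% of all tested genes. Over the 31 genes the median interaction was −0.08, against 0.0020 over all tested genes, with a negative sign in 26. A negative sign was a larger fall with TVA in siCreb1 cells, save for *Npc1* and *Insig2*. *Npc1* had a smaller rise (0.12 in siNTC and 0.03 in siCreb1 cells), and *Insig2* changed sign (0.10 and −0.10).

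**Figure D1:**
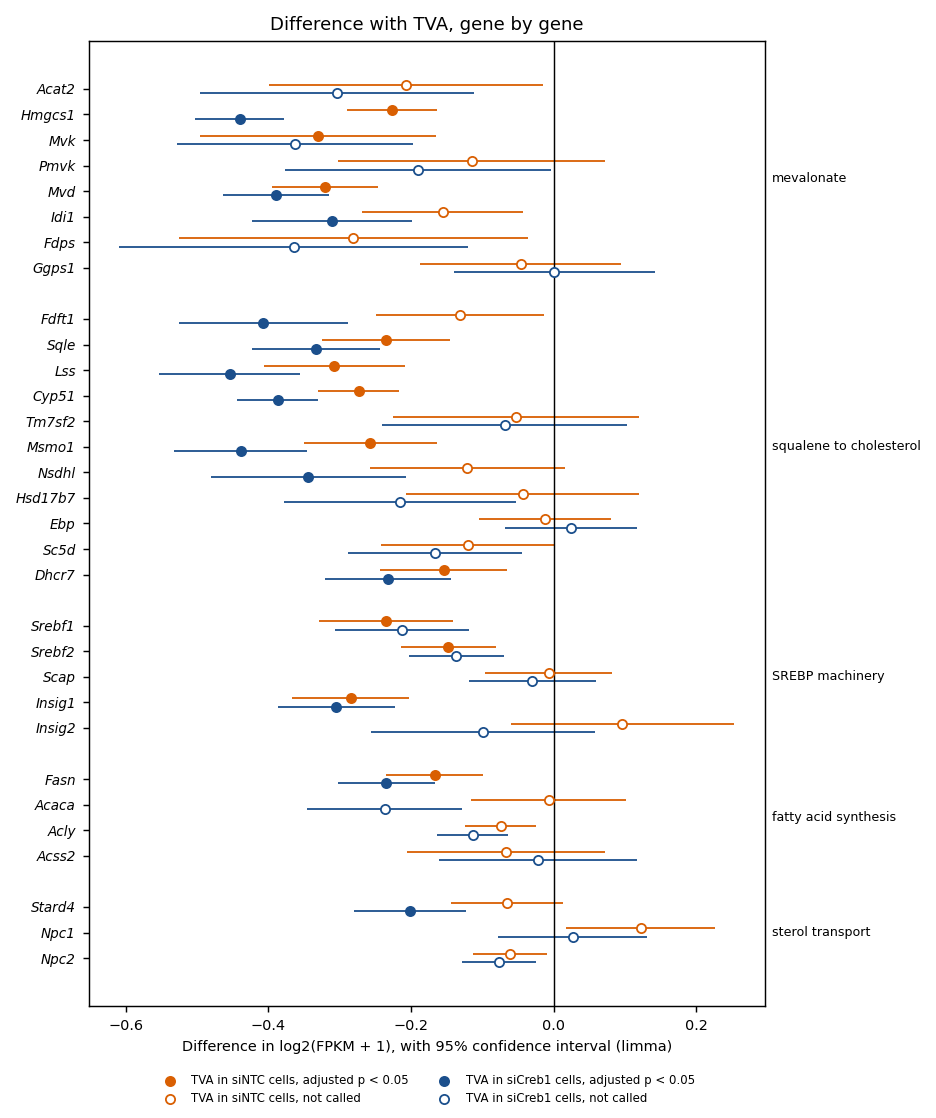
Difference in log2(FPKM + 1) with TVA for the 31 tested genes in pathway order, in siNTC cells (orange) and siCreb1 cells (blue), with the 95% confidence interval from limma. Filled points passed the adjusted threshold of 0.05 (12 in siNTC and 13 in siCreb1 cells) and all filled points lie left of 0.

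The first steps of the mevalonate route join acetyl-CoA units. *Acat2*, whose product joins the first pair of them, lay between 14.7 and 20.8 FPKM and was not called in any comparison. Its difference with TVA in siNTC cells was −0.21 (limma adjusted p = 0.204), which passed the test without siNTC replicate 2 (−0.31, limma adjusted p = 0.0228). *Hmgcs1* (ENSMUSG00000093930, chr13:119690379-119708260 in GRCm38), the HMG-CoA synthase of the cytosol, was at 39.3, 37.3 and 37.9 FPKM in the siNTC libraries and at 32.9, 32.8 and 31.8 with TVA. In siCreb1 cells it was at 44.1, 43.2 and 45.3 FPKM without and 32.9, 31.7 and 32.3 with TVA. The 4 groups thus formed 3 levels, siCreb1 above siNTC and both TVA groups together at the bottom with overlapping libraries. Mean expression with TVA was 14.9% lower in siNTC cells (log2 difference −0.23, SE 0.03, limma adjusted p = 0.000694) and 26.9% lower in siCreb1 cells (log2 difference −0.44, SE 0.03, limma adjusted p = 5.39e-05). Knockdown raised it by 15.7% without TVA (limma adjusted p = 0.00138). With TVA the knockdown difference was −0.01 in log2(FPKM + 1), with a 95% confidence interval of −0.07 to 0.05. The interaction was −0.21 (SE 0.04, limma adjusted p = 0.0212). It missed the threshold without siNTC plus TVA replicate 1 or 2, siCreb1 replicate 1 or 3 or siCreb1 plus TVA replicate 2 or 3, with values of −0.21 to −0.20 and limma adjusted p between 0.053 and 0.0601, and after rescaling to TPM.

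Phosphorylation and decarboxylation of mevalonate follow. *Mvk*, mevalonate kinase, was at 7.66, 8.70 and 7.05 FPKM in siNTC and 5.99, 6.36 and 5.62 FPKM in siNTC plus TVA libraries. It was at 7.94, 8.06 and 7.07 FPKM in siCreb1 and 5.78, 6.08 and 5.42 FPKM in siCreb1 plus TVA libraries. Both pairs of groups were apart, and the log2 differences with TVA were −0.33 in siNTC cells (limma adjusted p = 0.0239) and −0.36 in siCreb1 cells (limma adjusted p = 0.084). The difference in siCreb1 cells passed without siNTC replicate 2 (limma adjusted p = 0.0448) and with limma-voom (0.0236). The call in siNTC cells was lost without siNTC replicate 1 or 2 or siNTC plus TVA replicate 1 or 3 (−0.34 to −0.26, limma adjusted p between 0.0534 and 0.0862), without a filter (0.0692) and with only the libraries compared (0.0933). *Pmvk*, phosphomevalonate kinase, lay between 8.32 and 11.7 FPKM and its libraries overlapped between groups in every comparison. *Mvd*, mevalonate diphosphate decarboxylase (ENSMUSG00000006517, chr8:122433601-122443422), was at 43.9, 43.3 and 44.7 FPKM in siNTC and 36.4, 33.4 and 35.3 FPKM in siNTC plus TVA libraries. In siCreb1 cells the values were 47.5, 45.95 and 46.1 FPKM without TVA and 34.1, 35.7 and 36.1 FPKM with TVA. Each library with TVA was below each without, whatever the siRNA. *Mvd* was 20.4% lower with TVA in siNTC cells (log2 difference −0.32, SE 0.03, limma adjusted p = 0.00022) and 24.1% lower in siCreb1 cells (log2 difference −0.39, SE 0.03, limma adjusted p = 0.000595).

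Isoprenoid units are then made and joined. *Idi1*, the isomerase that balances the 2 isoprenoid units, was at 16.3, 15.5 and 16.6 FPKM in siNTC and 14.3, 15.7 and 13.2 FPKM in siNTC plus TVA libraries, which overlapped. After knockdown it was at 18.4, 17.6 and 17.7 FPKM without TVA and 14.1, 14.1 and 14.6 FPKM with TVA, with no overlap. The log2 difference with TVA was −0.31 in siCreb1 cells (limma adjusted p = 0.0245) and −0.16 in siNTC cells (limma adjusted p = 0.104). The first was lost on leaving out any 1 of the 6 libraries compared (limma adjusted p between 0.0699 and 0.126), and the second passed without siNTC plus TVA replicate 2 (−0.21, limma adjusted p = 0.0203). *Fdps*, farnesyl diphosphate synthase, was low, between 1.16 and 2.30 FPKM. Its libraries with TVA lay below those without in both siRNA backgrounds but the test was not passed (log2 differences −0.28 and −0.36), and reads shared with its annotated pseudogene or with the listed gene that covers most of it leave its level uncertain. *Ggps1*, which makes geranylgeranyl diphosphate for protein prenylation and lies off the route to sterols, had differences of −0.05 (95% confidence interval −0.19 to 0.09) and 0.00 (−0.14 to 0.14) with TVA.

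**Figure D2:**
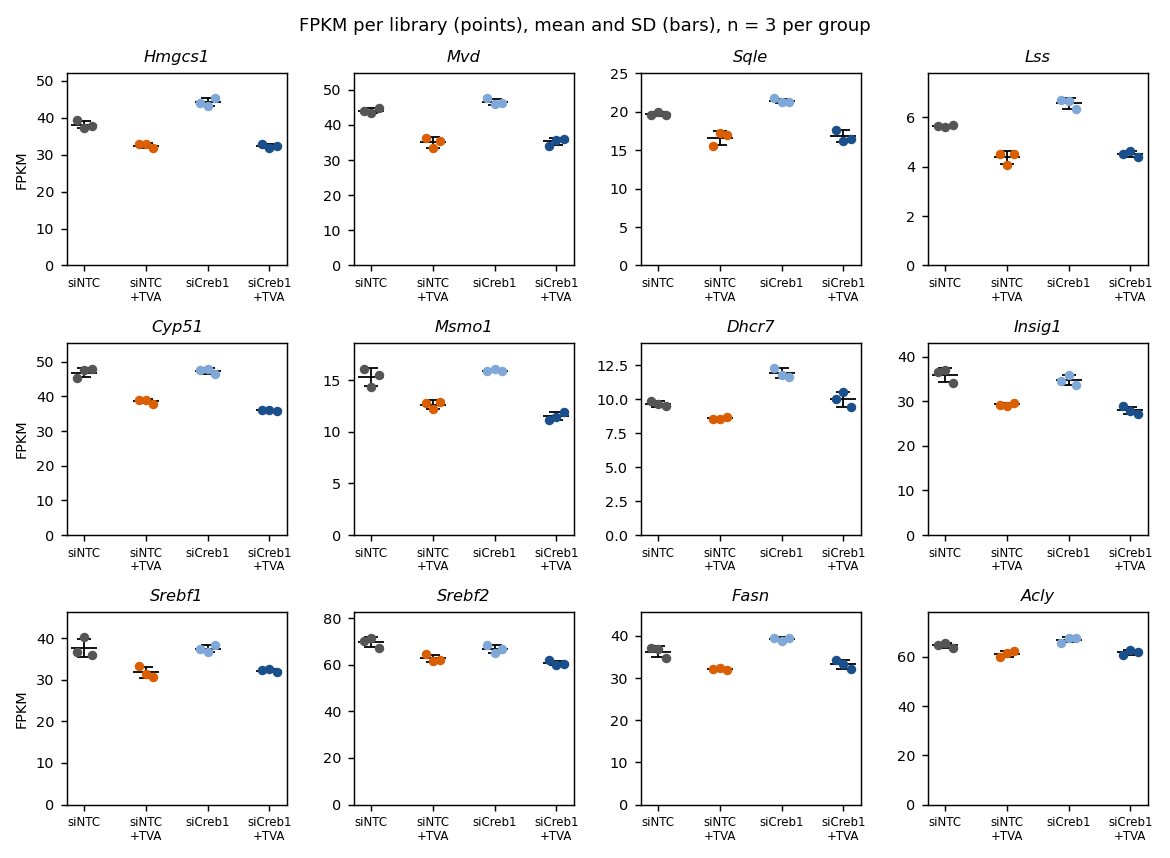
FPKM (vertical axes, from 0) of 12 genes in each library, with points for the 3 libraries of a group and bars for the mean and SD. For Hmgcs1, Mvd, Lss and Cyp51 the TVA libraries lie below the libraries without TVA in both siRNA backgrounds, and for Acly the same order holds with a step of 5.10% to 7.69%.

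Squalene synthesis commits isoprenoids to sterols. *Fdft1*, squalene synthase, was at 13.1, 12.9 and 12.4 FPKM in siNTC and 10.7, 12.2 and 11.96 FPKM in siNTC plus TVA libraries. It was at 14.7, 14.4 and 13.9 FPKM in siCreb1 and 11.2, 10.7 and 9.93 FPKM in siCreb1 plus TVA libraries. It fell with TVA in siCreb1 cells (log2 difference −0.41, SE 0.05, limma adjusted p = 0.00555), and in siNTC cells the difference was −0.13 (limma adjusted p = 0.189). The interaction was −0.28 (limma adjusted p = 0.103), which passed without siNTC plus TVA replicate 1 (−0.33, limma adjusted p = 0.0377). *Fdft1* overlaps *Ctsb* on the other strand by 774 bases, and the use of strand in counting was not stated. *Sqle*, squalene epoxidase, was at 19.6, 19.95 and 19.6 FPKM in siNTC and 15.6, 17.2 and 17.00 FPKM in siNTC plus TVA libraries. With siCreb1 it was at 21.8, 21.2 and 21.3 FPKM without and 17.7, 16.3 and 16.5 FPKM with TVA. It was lower by 15.7% in siNTC cells (limma adjusted p = 0.00536) and by 21.6% in siCreb1 cells (limma adjusted p = 0.00354). *Lss*, lanosterol synthase, closes the ring system. It was at 5.66, 5.62 and 5.69 FPKM in siNTC and 4.53, 4.07 and 4.53 FPKM in siNTC plus TVA libraries. In siCreb1 cells it was at 6.72, 6.65 and 6.33 FPKM without and 4.52, 4.64 and 4.41 FPKM with TVA, so the TVA groups overlapped and the siCreb1 group stood above the siNTC group. With TVA it was 22.5% lower in siNTC cells (log2 difference −0.31, SE 0.04, limma adjusted p = 0.00187) and 31.1% lower in siCreb1 cells (log2 difference −0.45, SE 0.04, limma adjusted p = 0.00105). Knockdown without TVA raised it by 16.1% (limma adjusted p = 0.0215), a call lost without siNTC replicate 1 or 2 or siCreb1 replicate 1 or 2 (0.17 to 0.19, limma adjusted p between 0.052 and 0.0742).

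Lanosterol is demethylated on the way to cholesterol. *Cyp51* (ENSMUSG00000001467, chr5:4081145-4104746), the first demethylase, was at 45.4, 47.6 and 47.8 FPKM in siNTC and 39.00, 38.97 and 37.96 FPKM in siNTC plus TVA libraries. It was at 47.7, 48.01 and 46.4 FPKM in siCreb1 and 36.2, 36.1 and 35.7 FPKM in siCreb1 plus TVA libraries. The groups without TVA overlapped at the top, and the siCreb1 plus TVA libraries lay below the siNTC plus TVA libraries. *Cyp51* fell by 17.6% in siNTC cells (log2 difference −0.27, SE 0.03, limma adjusted p = 0.000104) and by 24.02% in siCreb1 cells (log2 difference −0.39, SE 0.03, limma adjusted p = 5.57e-05). With TVA it was 6.89% lower in siCreb1 than in siNTC cells (limma adjusted p = 0.0348), and this call was lost on leaving out any 1 of the 6 libraries compared (−0.11 to −0.09, limma adjusted p between 0.0505 and 0.101). *Cyp51* overlaps *Akap9* on the other strand by 166 bases. *Msmo1*, the methylsterol monooxygenase that oxidizes the next methyl groups, was at 16.1, 14.4 and 15.5 FPKM in siNTC and 12.8, 12.2 and 12.9 FPKM in siNTC plus TVA libraries. After knockdown it was at 15.8, 16.04 and 15.9 FPKM without and 11.1, 11.5 and 11.9 FPKM with TVA. *Msmo1* was lower with TVA in both (log2 difference −0.26 in siNTC cells, limma adjusted p = 0.00403, and −0.44 in siCreb1 cells, limma adjusted p = 0.000935). *Nsdhl*, the dehydrogenase of the same demethylation, was at 10.6, 9.99 and 9.01 FPKM in siNTC and 9.39, 9.31 and 8.25 FPKM in siNTC plus TVA libraries, which overlapped. With siCreb1 it was at 11.2, 10.6 and 11.7 FPKM without and 8.53, 8.47 and 8.73 FPKM with TVA. Only the siCreb1 pair was apart and called (−0.34, limma adjusted p = 0.0408), and the call held without siNTC replicate 1 or 3 or siNTC plus TVA replicate 3 but was lost without any 1 of the other 9 libraries (limma adjusted p between 0.0572 and 0.173). *Hsd17b7*, the reductase of that step, lay between 3.22 and 4.73 FPKM and was not called (−0.04 and −0.22 with TVA in siNTC and siCreb1 cells).

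The last steps move and reduce double bonds of the sterol. *Dhcr7*, a reductase that yields cholesterol itself, was at 9.90, 9.63 and 9.47 FPKM in siNTC and 8.56, 8.53 and 8.65 FPKM in siNTC plus TVA libraries. It was at 12.3, 11.8 and 11.7 FPKM in siCreb1 and 10.01, 10.6 and 9.44 FPKM in siCreb1 plus TVA libraries. After knockdown *Dhcr7* was higher both without TVA (23.3%, log2 difference 0.28, limma adjusted p = 0.00175) and with TVA (16.6%, log2 difference 0.20, limma adjusted p = 0.0131). No other of the 31 genes was called higher in both. With TVA it was lower by 11.2% in siNTC cells (limma adjusted p = 0.0426) and by 16.1% in siCreb1 cells (limma adjusted p = 0.032). Leaving out 1 library at a time, the fall in siNTC cells held only without siCreb1 plus TVA replicate 2 or 3 and that in siCreb1 cells only without a siNTC replicate or siCreb1 plus TVA replicate 2, and each missed the threshold without any 1 of its other libraries (limma adjusted p between 0.0506 and 0.118 in siNTC cells and between 0.0547 and 0.144 in siCreb1 cells). *Ebp*, the sterol isomerase, lay between 22.98 and 26.5 FPKM, with differences of −0.01 (95% confidence interval −0.10 to 0.08) and 0.02 (−0.07 to 0.12) with TVA. *Sc5d*, a sterol desaturase, lay between 15.5 and 20.4 FPKM with −0.12 and −0.17, and *Tm7sf2*, a sterol reductase, between 2.01 and 2.64 FPKM with −0.05 and −0.07. None of these passed a test, and *Tm7sf2* shares 9356 bases of the same strand with *Vps51*, so its reads are uncertain.

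**Figure D3:**
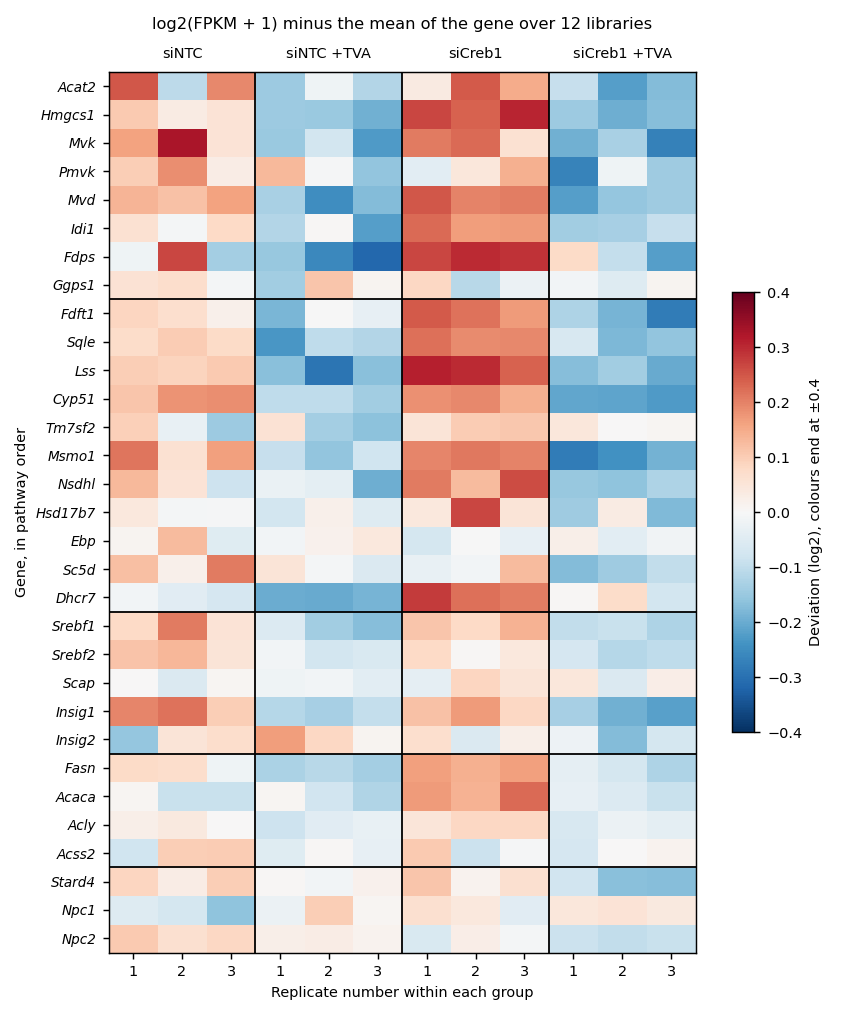
Deviation of log2(FPKM + 1) of each gene (rows, in pathway order) from its mean over 12 libraries (columns, by group and replicate), red above and blue below, with colours ending at ±0.4. Most sterol rows are blue in both TVA groups and red in the siCreb1 group, and rows such as Ebp, Ggps1, Scap and Acss2 stay pale.

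Both SREBP genes were lower with TVA in siNTC cells. *Srebf2* (ENSMUSG00000022463, chr15:82147181-82205379), which encodes SREBP2, was the most abundant of the 5 machinery genes, at 70.4, 71.3 and 67.3 FPKM in siNTC and 64.4, 61.6 and 62.3 FPKM in siNTC plus TVA libraries. In siCreb1 cells it was at 68.7, 65.1 and 66.95 FPKM without and 61.95, 59.9 and 60.5 FPKM with TVA. TVA libraries lay below in both backgrounds, with a fall of 9.89% in siNTC cells (log2 difference −0.15, limma adjusted p = 0.0132) and a difference of −0.14 in siCreb1 cells that missed the threshold (limma adjusted p = 0.103). The call was lost without siNTC replicate 2 or siNTC plus TVA replicate 2 or 3 (−0.14 to −0.13, limma adjusted p between 0.0504 and 0.057), and also with TPM (limma adjusted p = 0.0829) and with only the libraries compared (0.0794), and that in siCreb1 cells passed with limma-voom (adjusted p = 0.0103). *Srebf1*, which encodes SREBP1, was at 36.7, 40.2 and 36.1 FPKM in siNTC and 33.4, 31.4 and 30.7 FPKM in siNTC plus TVA libraries. It was at 37.5, 36.7 and 38.3 FPKM in siCreb1 and 32.3, 32.6 and 31.8 FPKM in siCreb1 plus TVA libraries. *Srebf1* fell by 15.5% in siNTC cells (log2 difference −0.23, SE 0.04, limma adjusted p = 0.00674), while in siCreb1 cells the difference was −0.21 (limma adjusted p = 0.069, and 0.0221 without siNTC replicate 2). With only the libraries compared the first missed the threshold (limma adjusted p = 0.0734) and the second passed (0.038), as the second did with limma-voom (0.00175). The interaction for *Srebf1* was 0.02, with a 95% confidence interval of −0.11 to 0.15, so the TVA difference was not shown to depend on *Creb1*. The FPKM are per gene and do not separate the SREBP1 isoforms.

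*Insig1* (ENSMUSG00000045294, chr5:28071363-28078662), which retains SCAP and is itself a target of SREBPs, was at 36.5, 37.1 and 34.1 FPKM in siNTC and 29.3, 28.9 and 29.7 FPKM in siNTC plus TVA libraries. It was at 34.6, 35.9 and 33.7 FPKM in siCreb1 and 28.9, 27.7 and 27.2 FPKM in siCreb1 plus TVA libraries. Its fall with TVA was 18.4% in siNTC cells (log2 difference −0.28, SE 0.04, limma adjusted p = 0.000892) and 19.6% in siCreb1 cells (log2 difference −0.30, SE 0.04, limma adjusted p = 0.00354). The interaction was −0.02 with a 95% confidence interval of −0.14 to 0.10, and knockdown gave −0.05 without and −0.07 with TVA, neither called. *Insig2*, the other retention protein, lay between 4.89 and 6.47 FPKM and had differences of 0.10 and −0.10 with TVA in siNTC and siCreb1 cells, its libraries overlapping in both. *Scap*, the escort, lay between 13.1 and 14.5 FPKM in all libraries. Its differences with TVA were −0.01 (95% confidence interval −0.10 to 0.08) and −0.03 (−0.12 to 0.06).

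In the fatty acid branch *Fasn*, fatty acid synthase (ENSMUSG00000025153, chr11:120805846-120824547), was lower with TVA. It was at 37.1, 36.9 and 34.7 FPKM in siNTC and 32.1, 32.5 and 31.9 FPKM in siNTC plus TVA libraries. After knockdown it was at 39.5, 38.9 and 39.5 FPKM without and 34.2, 33.4 and 32.2 FPKM with TVA. Libraries with TVA were below those without in both backgrounds, and the siCreb1 libraries were the highest of the 4 groups. The fall was 11.3% in siNTC cells (log2 difference −0.17, SE 0.03, limma adjusted p = 0.0078, and 0.0631 with only the libraries compared) and 15.4% in siCreb1 cells (log2 difference −0.23, SE 0.03, limma adjusted p = 0.00555). Knockdown without TVA raised it by 8.44% (limma adjusted p = 0.0322), a call lost without siNTC replicate 3 or any siCreb1 replicate (0.08 to 0.12, limma adjusted p between 0.0655 and 0.0913).

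*Acaca*, the acetyl-CoA carboxylase that makes malonyl-CoA for *Fasn*, had another pattern. It was at 4.62, 4.26 and 4.25 FPKM in siNTC and 4.61, 4.30 and 4.14 FPKM in siNTC plus TVA libraries, which overlapped. It was at 5.29, 5.15 and 5.54 FPKM in siCreb1 and 4.47, 4.38 and 4.26 FPKM in siCreb1 plus TVA libraries, so only the siCreb1 group without TVA stood apart. Knockdown without TVA raised it by 21.7% (log2 difference 0.23, SE 0.05, limma adjusted p = 0.011), with TVA the knockdown difference was 0.00, and TVA gave −0.01 in siNTC and −0.24 in siCreb1 cells (limma adjusted p = 0.084). The interaction was −0.23 (limma adjusted p = 0.136), which passed with limma-voom on recovered reads. *Acly*, the ATP citrate lyase that supplies acetyl-CoA to both branches, was among the 3 most abundant of the 32 genes, at 64.6, 65.4 and 63.7 FPKM in siNTC and 59.98, 61.6 and 62.3 FPKM in siNTC plus TVA libraries. With siCreb1 it was at 65.8, 67.5 and 67.4 FPKM without and 60.8, 62.6 and 61.8 FPKM with TVA. The TVA libraries were below in both, by 5.10% and 7.69%, and neither difference passed (limma adjusted p = 0.0773 and 0.069). *Acss2*, which makes acetyl-CoA from acetate, lay between 4.49 and 5.26 FPKM with differences of −0.07 and −0.02 and overlapping libraries, and genes on the other strand cover part of it. *Me1*, a malic enzyme that yields NADPH for lipid synthesis, was at or near 0 with 0 to 4 reads per library, and was not tested.

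**Figure D4:**
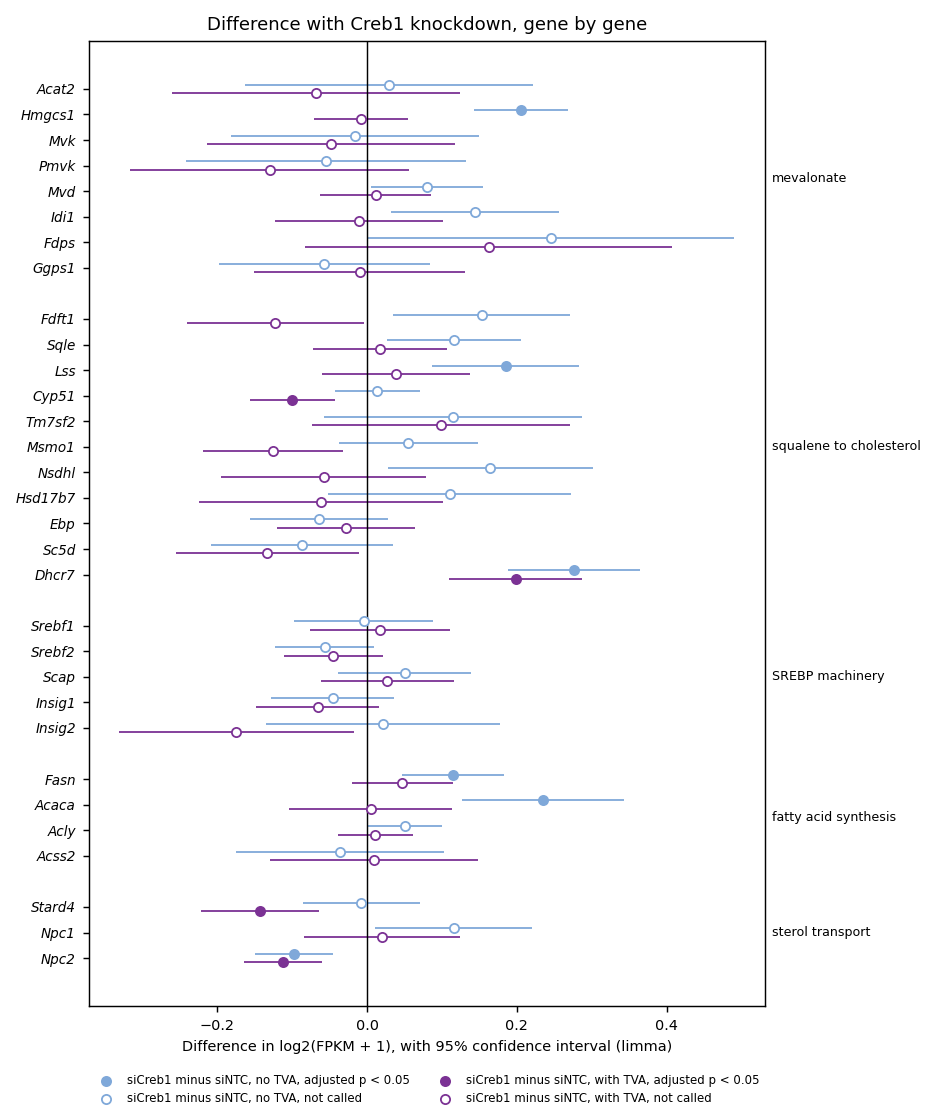
Difference in log2(FPKM + 1) of siCreb1 minus siNTC cells for the 31 tested genes, without TVA (light blue) and with TVA (purple), with the 95% confidence interval from limma. Filled points passed the adjusted threshold of 0.05, 6 without and 4 with TVA, and Dhcr7 and Npc2 are filled in both.

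Both branches were also set side by side, with *Fasn* as the measure for the sterol genes. In siNTC cells 9 of the 19 sterol genes, from *Acat2* (−0.21) to *Mvk* (−0.33), had a larger fitted fall with TVA than *Fasn* (−0.17), and 10 did not, among them *Idi1* (−0.16), *Ggps1* (−0.05) and *Ebp* (−0.01). In siCreb1 cells 12 of the 19 had a larger fitted fall than *Fasn* (−0.23), the farthest being *Lss* (−0.45), and 7 did not, *Dhcr7* (−0.23) and *Ebp* (0.02) among them. By mean FPKM, *Dhcr7* (16.1%) and *Hsd17b7* (17.2%) of these 7 fell by more than *Fasn* (15.4%). The log2(FPKM + 1) scale understates the change of low genes. The median difference was −0.16 over the 19 sterol genes and −0.07 over the 4 tested fatty acid genes in siNTC cells. In siCreb1 cells these medians were −0.33 and −0.17. The ratio of *Hmgcs1* to *Fasn* FPKM in the same library was 1.05 ± 0.0411 in siNTC, 1.01 ± 0.0145 in siNTC plus TVA, 1.12 ± 0.0190 in siCreb1 and 0.972 ± 0.0286 in siCreb1 plus TVA libraries (SD, n = 3). The ratio of *Cyp51* to *Acly* was 0.727 ± 0.0243, 0.631 ± 0.0205, 0.708 ± 0.0189 and 0.583 ± 0.0103 in the same order. The *Cyp51* to *Acly* ratios did not overlap between libraries with and without TVA in either background. The *Hmgcs1* to *Fasn* ratios did not overlap in siCreb1 cells but did in siNTC cells. *Cyp51* to *Fasn* and *Hmgcs1* to *Acly* ratios overlapped in neither background. The ratio of *Fasn* to *Acly*, both listed in the fatty acid branch, was 0.561 ± 0.0151, 0.525 ± 0.0114, 0.587 ± 0.0121 and 0.539 ± 0.0214 in the same order. It also overlapped in neither background, so a lower ratio to *Acly* does not by itself set the sterol genes apart. These are descriptions, and the difference between the branches was not tested.

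Of the 3 sterol transport genes, *Stard4* and *Npc2* were called in some comparison and *Npc1* in none. *Stard4*, a carrier of sterols through the cytosol and a known SREBP target, was at 21.2, 20.3 and 21.4 FPKM in siNTC and 19.97, 19.8 and 20.2 FPKM in siNTC plus TVA libraries. It was at 21.6, 20.1 and 20.8 FPKM in siCreb1 and 18.8, 17.6 and 17.5 FPKM in siCreb1 plus TVA libraries, the last group standing below the others. It fell with TVA in siCreb1 cells (13.6%, limma adjusted p = 0.0356) and was lower in siCreb1 than in siNTC cells with TVA (9.86%, limma adjusted p = 0.0307). The first call held without siNTC replicate 2 or siCreb1 plus TVA replicate 1 but was lost without any 1 of the other 10 libraries (limma adjusted p between 0.0525 and 0.178) and the second without any siNTC plus TVA replicate or siCreb1 plus TVA replicate 2 or 3 (−0.15 to −0.13, limma adjusted p between 0.0671 and 0.102). *Npc2*, which hands cholesterol to *Npc1* inside lysosomes, was at 132, 128 and 130.1 FPKM in siNTC and 125, 125 and 124 FPKM in siNTC plus TVA libraries. In siCreb1 cells it was at 117, 125 and 122 FPKM without and 116, 114 and 115 FPKM with TVA. It was lower after knockdown by 6.56% without TVA (limma adjusted p = 0.0217) and by 7.58% with TVA (limma adjusted p = 0.0155), and both calls were lost after TPM rescaling and after quantile normalization. The first was also lost without siNTC replicate 1 or 3 or siCreb1 replicate 1 or 3 (limma adjusted p between 0.0516 and 0.0692) and the second without siNTC plus TVA replicate 2 or siCreb1 plus TVA replicate 2 (0.0537 and 0.0558). *Npc1*, the membrane protein that exports lysosomal cholesterol, lay between 5.45 and 6.72 FPKM. Its siNTC plus TVA libraries were all above the siNTC libraries, with a difference of 0.12 that missed the threshold (limma adjusted p = 0.168).

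Of 31 further genes around these pathways 29 were tested. With TVA in siNTC cells 2 were lower (6.9% of the 29, against 7.38% of all tested genes called and 2.88% called lower), *Rnf145* (a ubiquitin ligase of the endoplasmic reticulum, −0.16) and *Pgd* (an NADPH-producing enzyme of the pentose phosphate route, −0.15), and in siCreb1 cells 1 was lower, *Tmem97* (a membrane protein linked to sterol handling, −0.30), where 0.537% of all tested genes were called. After knockdown without TVA 4 were lower (13.8%, against 13.7% of all tested genes called and 7.21% called lower), *Mbtps1* (the protease that makes the first cut in SREBPs, −0.13), *Rnf139* (another such ligase, −0.14), *Rnf145* (−0.11) and *Por* (the electron donor of *Cyp51*, −0.17). With TVA, *Tmem97* was among those lower after knockdown (−0.30), where 10.1% of all tested genes were called, 4.64% higher and 5.51% lower. None was called higher in these 4 comparisons, and the interaction called *Tmem97* alone (−0.44), against 2.24% of all tested genes. The median difference of the 29 with TVA was −0.0018 in siNTC and −0.0036 in siCreb1 cells, against −0.13 and −0.23 over the 31 SREBP genes.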

How the data were processed

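RNA-seq was made from mouse CD8+ T cells in 4 groups of 3 libraries, as the labels give them, with a SMARTER mRNA-Seq kit. The authors deposited FPKM values, 1 file per library, made from read counts per gene by scaling to gene length and library size. The submitters' processing notes name GRCm38 and mm10, and the aligner, counter, annotation release and use of strand are not given in the sources used here. FPKM times gene length came out as whole reads for at least 99.995% of genes above 0 (tolerance 0.01).

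Tests used limma 3.58.1 in R 4.3.3 (linear fit, contrasts and moderated variances that follow the mean), on log2(FPKM + 1) of the 11550 genes whose FPKM averaged 1 or more. One fit of all 12 libraries gave 5 comparisons, Benjamini-Hochberg adjusted over all tested genes with a threshold of 0.05. A difference on this scale understates the change of low genes. Percent changes are between group means of FPKM. The fit was tested on simulated data with the same spread setting for all genes and larger changes than those called among the SREBP genes. That test therefore does not cover changes of the size reported here. The alternatives were a pseudocount of 0.1, no filter, an average FPKM of 5 or more, normalization by quantiles, TPM computed from FPKM, the replicate number as a block, a fit of only the libraries compared, limma-voom on recovered reads, and leaving out each library.

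*Creb1* and all 32 genes are named. Each library is printed for genes with an adjusted p under 0.05 in at least 1 comparison and for *Hmgcs1*, *Fasn*, *Insig1*, *Srebf1* and *Srebf2*. The further pathway genes are named only if called. A called result among them is not reported here. The members and lists were chosen with earlier results of these data known. Promoters were read from a RefSeq table (GRCm38.p6), and figures were drawn with matplotlib 3.10.9.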

Additional observations from a re-analysis of the deposited data

Results flagged for a closer look

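The effect of TVA on *Hmgcs1* differed between the siRNA backgrounds by the test of the difference itself. The interaction was −0.2137 in log2(FPKM + 1) (limma adjusted p = 0.0212), its libraries being at 39.3, 37.3 and 37.9 FPKM in siNTC, 32.9, 32.8 and 31.8 FPKM in siNTC plus TVA, 44.1, 43.2 and 45.3 FPKM in siCreb1 and 32.9, 31.7 and 32.3 FPKM in siCreb1 plus TVA. All libraries with TVA were lower in both backgrounds. The interaction call was lost without any 1 of 6 of the 12 libraries (limma adjusted p between 0.053 and 0.0601) and with TPM (limma adjusted p = 0.096).

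*Tmem97*, a membrane protein linked to sterol handling and one of the further pathway genes, was at 19.1, 16.97 and 17.5 FPKM in siNTC and 19.2, 19.9 and 19.95 FPKM in siNTC plus TVA libraries. It was at 19.5, 20.1 and 19.5 FPKM in siCreb1 and 15.9, 15.00 and 16.5 FPKM in siCreb1 plus TVA libraries. Thus all libraries with TVA were higher in siNTC cells (0.14, limma adjusted p = 0.104) and all were lower in siCreb1 cells (−0.30, limma adjusted p = 0.0135), and the same holds for knockdown without TVA (0.14) and with it (−0.30). The interaction was −0.44 (SE 0.06, limma adjusted p = 0.00584).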

How the results depend on the processing

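No SREBP gene that was called changed its direction under any alternative. The 12 genes called with TVA in siNTC cells became 6 with only the libraries compared (without *Srebf1*, *Srebf2*, *Fasn*, *Msmo1*, *Mvk* and *Dhcr7*). The 6 called after knockdown without TVA became 2 with only the libraries compared and 10 with limma-voom. The 4 called after knockdown with TVA became 2 without a filter and 1 with quantile normalization, with TPM and with only the libraries compared. For the interaction, 1 became 0 with TPM and 3 with limma-voom (*Hmgcs1*, *Fdft1* and *Acaca*), and the cause was not tested in any of these. Leaving out 1 library gave 9 to 12 genes for TVA in siNTC cells, 9 to 14 for TVA in siCreb1 cells, 3 to 8 and 1 to 5 for knockdown without and with TVA, and 0 to 1 for the interaction. The two-sided exact permutation test of *Creb1* kept p = 0.0021645 in TPM and without each library, the smallest that these divisions give. *Cyp51*, *Hmgcs1*, *Insig1*, *Lss*, *Mvd* and *Sqle* passed in both TVA comparisons under all 20 alternatives. *Dhcr7* was lost with TVA in siNTC cells without a filter, with quantile normalization, TPM, the replicate block, only the libraries compared and limma-voom. With TVA in siCreb1 cells *Stard4*, *Idi1*, *Dhcr7* and *Nsdhl* were lost without a filter, *Idi1*, *Dhcr7* and *Nsdhl* with the block (*Mvk* was gained), *Stard4* with quantile normalization, and *Stard4* and *Dhcr7* with TPM and with only the libraries compared (*Srebf1* was gained), while limma-voom added *Srebf1*, *Srebf2*, *Acly*, *Acaca*, *Acat2* and *Mvk*. Of the calls of single genes, 351 of 432 held on leaving out 1 library, 36 of 36 held with a pseudocount of 0.1, 27 of 36 with TPM and 20 of 35 with only the libraries compared.

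Counts over all genes moved as well. For TVA in siNTC cells 852 became 563 without a filter, 556 with TPM, 368 with only the libraries compared and 558 without siNTC plus TVA replicate 2. For TVA in siCreb1 cells 62 became 37 with TPM, 34 with the replicate block, 39 with only the libraries compared and 157 with limma-voom. Knockdown without TVA gave 992 without a filter, 817 with only the libraries compared and 1020 and 1054 without siCreb1 replicate 1 and 2, in place of 1586. Knockdown with TVA gave 683 without a filter, 740 with TPM and 599 to 757 on leaving out any siNTC plus TVA or siCreb1 plus TVA replicate, in place of 1172. The interaction gave 152 with TPM, 446 with limma-voom and 168 to 172 without siNTC plus TVA replicate 2 or siCreb1 replicate 1 or 2, in place of 259.

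The replicate numbers pair no samples by any label, and deviations from the group means of same-numbered libraries correlated between −0.0593 and 0.0595 over 18 pairs. With the replicate number as a block 11, 11, 6, 3 and 1 of the SREBP genes were called in the 5 comparisons. Depth limits *Me1*, with at most 4 reads, and differences of low genes such as *Fdps*. With 3 libraries per group small differences could be missed, so a gene that was not called is not shown to be unchanged.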
